A study of Gossypium hirsutum with 12 samples.

Results

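A set of 7 genes of the raffinose family and trehalose pathways were followed in water-stressed and well-watered primary root tips of cotton (Gossypium hirsutum, cv. AU90810). They encode galactinol synthase 1 (Gh_A11G0980), galactinol synthase 2 (Gh_A09G2130), a pair of seed imbibition 2 proteins (Gh_A01G1088 and Gh_D12G1848), trehalose phosphatase/synthase 5 (Gh_D08G1695) and a pair of haloacid dehalogenase-like (HAD) hydrolases that the study's GO annotation places in trehalose biosynthesis (Gh_D11G2201 and Gh_D03G1545). They are 7 of the 70477 genes in the count table, all 7 passed the filter on low counts, and they were taken by ID from the study's list of differentially accumulated transcripts (DATs). A DAT is a transcript that changed in the same direction in 48 h stressed roots against both well-watered controls, so those 2 comparisons chose the genes and are given below as description, with no test. The letter and first digits of an ID name the A or D subgenome of this allotetraploid and the chromosome.

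Seedlings grew in the dark in vermiculite and 4 groups of 3 libraries were sequenced, 12 in all. WS48 and WS24 are water-stressed roots (−1.0 MPa) taken 48 h and 24 h after transplanting, and WW48 and WW24 are well-watered roots (−0.02 MPa) of the same times. WW48 is the control of the same age as WS48, and WW24, whose roots had about the length of WS48 roots, is the developmental control. For WS24 the study had no developmental control. WS24/WW24 thus matches root age but not root development, and stress and development cannot be told apart in it. Each library pooled root tips of 1 genotype from an independent experiment, with the apical 6 mm taken from stressed and the apical 12 mm from watered roots, so stress and the length of the tip cannot be told apart.

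Raffinose family oligosaccharides are sucrose carrying added galactose units. Galactinol synthase joins galactose from UDP-galactose to myo-inositol, raffinose synthase passes that galactose from galactinol to sucrose, and both the oligosaccharides and galactinol are known as osmolytes and protectants in seeds and in tissues losing water. Trehalose is a glucose disaccharide made by way of trehalose phosphate, an intermediate that plants use as a signal of sucrose status. Trehalose phosphate synthase makes the intermediate and a phosphatase of the HAD superfamily removes its phosphate.

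The libraries held 6433993 to 11316010 reads in genes (median 10000113), 60.9% to 68.8% of all reads counted. WW24 replicate 2 stood apart, at 90.4 on a first principal component that took 46% of the variance, against −29.1 and −6.15 for the other WW24 libraries. In it 9 laccases, used as xylem markers, summed to 959 CPM (reads per 1000000 reads in genes, after TMM scaling), against 231 and 325 CPM in the other WW24 libraries. Xylem markers summed to 84.6 to 147 CPM in WS48, 32.8 to 49.5 in WS24, 735 to 1411 in WW48 and 231 to 959 in WW24. The 7 phloem markers summed to 40.2 to 41.8 CPM in WS48, 31.9 to 38.3 in WS24, 303 to 422 in WW48 and 238 to 540 in WW24, and 1 of them (Gh_A05G2423, phloem protein 2-A12) had no read in WS48. In WS24/WW24 all 9 xylem markers, 5 of 7 phloem markers and 2 of 2 root hair markers were called lower by the rule given below. Called higher were 1 root cap marker, 1 of 3 markers of dividing cells and 2 of 3 photosynthetic genes. Over all genes tested 4.93% were called lower and 3.75% higher. The study called every one of these markers on the same libraries, with WW24 as a control, so nothing is read from these counts. The part that any shift in the makeup of the tip has in the results below was not tested. In bulk tissue fewer cells of a type and less RNA per cell cannot be told apart.

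At 24 h, 6 of the 7 genes, all chosen as DATs, were called in WS24/WW24 by the rule given below. Transcripts of galactinol synthase 2, seed imbibition 2 Gh_A01G1088, trehalose phosphatase/synthase 5 and HAD hydrolase Gh_D11G2201 rose in WS24/WW24, and those of seed imbibition 2 Gh_D12G1848 and HAD hydrolase Gh_D03G1545 fell. Genes were called where edgeR's adjusted p was at most 0.05 and the log2 fold change reached 1 or −1, and over all 43938 genes tested 3.75% were called higher and 4.93% lower. Galactinol synthase 1 was not called (edgeR adjusted p = 0.0847). In 5 of the 7 genes every WS24 library was above every WW24 library, and in 2 every one was below, patterns that 18.3% and 14.9% of all genes showed. The WS24 libraries took no part in choosing the genes, but the WW24 libraries did, as a control. The median log2 fold change of the 7 genes was 1.67 in WS24/WW24, beside 0.000441 over all genes tested. The study reports that most of its cotton DATs responded similarly at the earlier time. These genes were not compared with other DATs, so nothing is read from their count or median.

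Galactinol synthase 2 (Gh_A09G2130) had the largest change of the 7 genes. Its level was 21.0, 15.7 and 21.5 CPM in WS48 and 14.4, 9.64 and 12.8 CPM in WS24, against 0.411, 0.459 and 0.260 CPM in WW48 and 0.122, 1.15 and 0.826 CPM in WW24. The transcript was thus close to the detection limit in watered roots, where 3 reads correspond to 0.260 to 0.459 CPM over the libraries of the series, and the 6 watered libraries held 10 reads (WW48) and 18 reads (WW24) in all. No stressed library overlapped a watered one. In WS24/WW24 the log2 fold change was 4.13 (SE 0.39, edgeR adjusted p = 3.83e-05), a 17.5-fold difference that ranked 136 among the positive changes of 43938 genes. In the comparisons that chose the gene, the log2 fold change was 4.78 (SE 0.38) in WS48/WW24 and 5.69 (SE 0.42) in WS48/WW48.

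Galactinol synthase 1 (Gh_A11G0980) was an abundant transcript in stressed roots and varied widely among the watered libraries. It stood at 177, 180 and 158 CPM in WS48 and 96.0, 81.3 and 103 CPM in WS24, against 67.5, 65.0 and 29.6 CPM in WW48 and 17.98, 77.2 and 24.5 CPM in WW24. Every stressed library was above every watered one, but the highest WW24 library, replicate 2, came close to the lowest WS24 library. The log2 fold change in WS24/WW24 was 1.24 (SE 0.45), and without WW24 replicate 2, the library with high xylem markers, it was 2.14 (edgeR adjusted p = 0.000277) and was called. With 1 library left out the value ran from 0.89 to 2.14, and no other such omission led to a call. In WS48/WW24 the value was 2.12 (SE 0.46). It ran from 1.77 to 3.02 with 1 library left out, and was highest without WW24 replicate 2. In WS48/WW48 it was 1.67 (SE 0.45). The WS48/WW48 value fell outside the threshold on adjusted p when any 1 WS48 library, WW48 replicate 2 or WW48 replicate 3 was left out (log2 fold change 1.38 to 1.83).

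**Figure D1:**
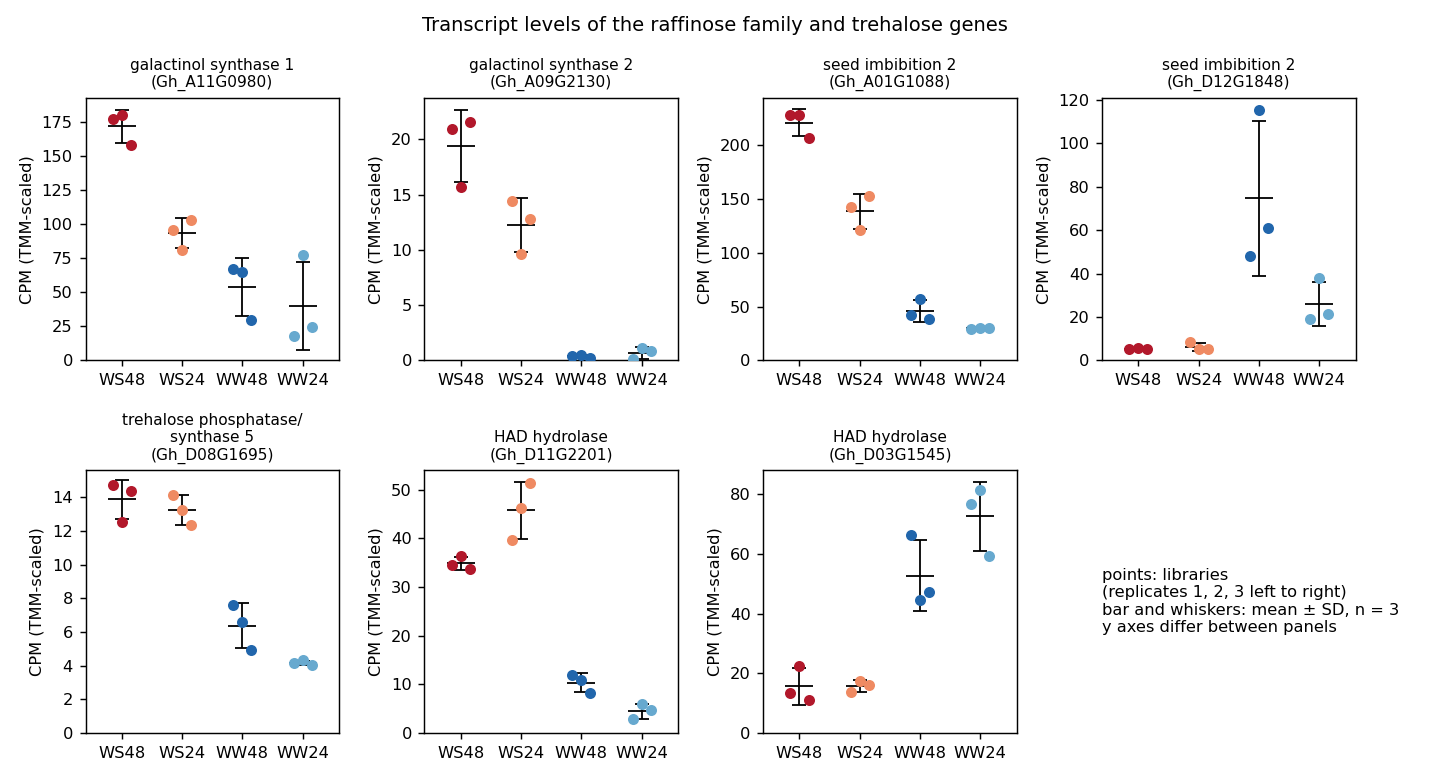
Transcript levels (CPM after TMM scaling, vertical axes differing between panels) of the 7 genes in WS48, WS24, WW48 and WW24 root tips. Points are libraries and bars the mean ± SD (n = 3). The stressed libraries lie above all watered libraries for 5 genes and below them for seed imbibition 2 Gh_D12G1848 and HAD hydrolase Gh_D03G1545.

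Seed imbibition proteins belong to the raffinose synthase family by sequence, and in Arabidopsis seed imbibition 2 is known to split galactose from raffinose. The pair of seed imbibition 2 genes changed in opposite directions. Gh_A01G1088, the most abundant of the 7 transcripts by read count in stressed roots, stood at 228, 228 and 206 CPM in WS48 and 142, 121 and 152 CPM in WS24, against 42.4, 57.2 and 38.1 CPM in WW48 and 28.7, 30.1 and 30.3 CPM in WW24. Within each group its libraries were close together, and the lowest stressed library was far above the highest watered one. In WS24/WW24 its log2 fold change was 2.22 (SE 0.17, edgeR adjusted p = 6.76e-06), beside 2.89 (SE 0.17) in WS48/WW24 and 2.27 (SE 0.16) in WS48/WW48.

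Seed imbibition 2 Gh_D12G1848 was at 5.07, 5.61 and 5.17 CPM in WS48 and 8.48, 5.16 and 5.27 CPM in WS24, against 48.0, 115 and 60.9 CPM in WW48 and 19.3, 37.9 and 21.3 CPM in WW24. The stressed libraries were low and alike at both times, while the watered ones were scattered, and replicate 2 was the highest in both watered groups. Those same libraries had the highest xylem marker sums of their groups (1411 CPM in WW48 and 959 CPM in WW24). In WW48 that order came from the laccase 14 genes (Gh_A05G2114, Gh_A05G2115 and Gh_D05G2355). Every other laccase of the list was highest in WW48 replicate 1, such as laccase 11 Gh_A13G0237 at 25.3, 18.8 and 15.3 CPM. In WS24/WW24 the log2 fold change was −2.04 (SE 0.36, edgeR adjusted p = 0.00274), and −1.67 (edgeR adjusted p = 0.00306) without WW24 replicate 2. It was −2.30 (SE 0.36) in WS48/WW24 and −3.81 (SE 0.37) in WS48/WW48.

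Among the trehalose genes, trehalose phosphatase/synthase 5 (Gh_D08G1695) carries the name of an Arabidopsis protein with both a synthase-like and a phosphatase-like domain. Its level was 14.7, 12.6 and 14.4 CPM in WS48 and 14.2, 13.3 and 12.4 CPM in WS24, against 7.60, 6.58 and 4.94 CPM in WW48 and 4.16, 4.30 and 4.04 CPM in WW24. Stressed libraries of both times overlapped, and all lay above the watered ones. Its log2 fold change in WS24/WW24 was 1.67 (SE 0.18, edgeR adjusted p = 0.000111), with 1.74 (SE 0.18) in WS48/WW24. Of all 7 genes it lay closest to the threshold in a comparison that chose them, at 1.13 (SE 0.17) in WS48/WW48 and 0.96 without WW48 replicate 3.

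The HAD hydrolases of the trehalose term also differed in direction. Gh_D11G2201 stood at 34.6, 36.4 and 33.7 CPM in WS48 and 39.8, 46.2 and 51.3 CPM in WS24, against 11.9, 10.9 and 8.15 CPM in WW48 and 2.81, 5.88 and 4.77 CPM in WW24. All 4 groups were separate from each other, with WS24 highest and WW24 lowest. At 24 h, in WS24/WW24, its log2 fold change was 3.35 (SE 0.23, edgeR adjusted p = 4.98e-06), a 10.2-fold difference, beside 2.96 (SE 0.23) in WS48/WW24 and 1.76 (SE 0.21) in WS48/WW48.

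Gh_D03G1545 stood at 13.4, 22.4 and 10.9 CPM in WS48 and 13.6, 17.5 and 15.9 CPM in WS24, against 66.4, 44.5 and 47.1 CPM in WW48 and 76.8, 81.5 and 59.3 CPM in WW24. Every stressed library was below every watered one. Its WS24/WW24 log2 fold change was −2.21 (SE 0.26, edgeR adjusted p = 0.000181), beside −2.21 (SE 0.26) in WS48/WW24 and −1.76 (SE 0.26) in WS48/WW48. Which of these HAD hydrolases acts on trehalose phosphate is not given by their annotation.

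**Figure D2:**
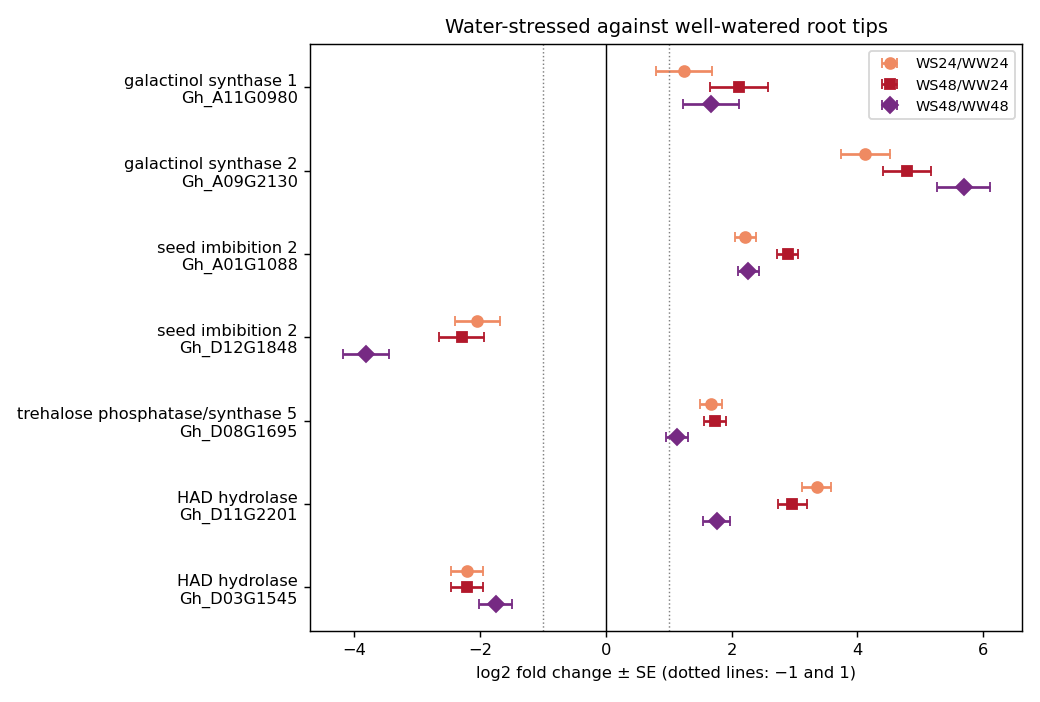
Log2 fold change ± SE of the 7 genes in water-stressed against well-watered root tips, for WS24/WW24, WS48/WW24 and WS48/WW48 (n = 3 libraries a group), with dotted lines at the threshold of 1 and −1. The galactinol synthases, seed imbibition 2 Gh_A01G1088, trehalose phosphatase/synthase 5 and HAD hydrolase Gh_D11G2201 lie to the right of 0 and the other two to the left. WS24/WW24 and WS48/WW24 share the WW24 libraries, and WS48/WW24 and WS48/WW48 the WS48 libraries.

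Counted by the comparisons that chose them, 5 of the 7 genes were higher and 2 lower in WS48 than in both controls, with no overlap of libraries. The share of genes called was 3.57% higher and 3.9% lower in WS48/WW24, 3.18% higher and 5.98% lower in WS48/WW48, and 1.64% higher and 2.16% lower in both. Libraries without overlap were found for 15.3% (all higher) and 15% (all lower) of genes in WS48/WW24 and for 20.7% and 20.7% in WS48/WW48. Nothing is read from these counts, since they follow from the choice. No gene of the pathway lists lay outside the threshold, and those lists too were drawn from the study's DATs. A DAT of the study need not be called in this fit. Of the markers, drawn from the same DATs, 2 of 9 for xylem and 5 of 7 for phloem were called lower in both comparisons. Just inside it in WS48/WW48 were trehalose phosphatase/synthase 5, with the value above, and the HAD hydrolase Gh_A12G1807 at −1.07 (SE 0.30).

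Between 24 h and 48 h little was called under stress. In WS48/WS24 none of the 7 genes was called by edgeR, DESeq2 or limma-voom, and 2 had an unadjusted p under 0.05, while edgeR called 0.382% of all genes, 0.127% higher and 0.255% lower. The log2 value of galactinol synthase 1 was 0.88 (SE 0.44, edgeR adjusted p = 0.392), that of galactinol synthase 2 was 0.66 (SE 0.28, edgeR adjusted p = 0.313) and that of seed imbibition 2 Gh_A01G1088 was 0.67 (SE 0.16, edgeR adjusted p = 0.0842). In these 3 genes all WS48 libraries were above all WS24 libraries, a pattern that 16.7% of all genes showed. WW24 replicate 2 is not in this comparison but shares in the model's estimate of spread. Without it galactinol synthase 1 (0.87, edgeR adjusted p = 0.0433) and Gh_A01G1088 (0.67, edgeR adjusted p = 0.0138) passed the adjusted p but not the fold. Galactinol synthase 2 passed neither (0.65, edgeR adjusted p = 0.0968). HAD hydrolase Gh_D11G2201 had all WS48 libraries below all WS24 libraries, as again 16.7% of genes did (−0.39, SE 0.20, edgeR adjusted p = 0.402). For trehalose phosphatase/synthase 5 the interval of the log2 change ran from −0.26 to 0.39 and for HAD hydrolase Gh_D03G1545 from −0.50 to 0.50, both at 95% from the SE.

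In watered roots 2 of the 7 genes were called over the same day. In WW48/WW24, seed imbibition 2 Gh_D12G1848 rose by 1.52 on the log2 scale (SE 0.33, edgeR adjusted p = 0.0171) and HAD hydrolase Gh_D11G2201 by 1.20 (SE 0.23, edgeR adjusted p = 0.0108), 2 of 7 genes beside 3.53% of all genes called higher. None of the 7 fell by edgeR, DESeq2 or limma-voom, beside 1.26% of all genes called lower, and of 4 genes with an unadjusted p under 0.05 all had positive changes. The seed imbibition 2 gene was no longer called without WW48 replicate 2 (1.07, edgeR adjusted p = 0.0729), WW24 replicate 1 (1.34, edgeR adjusted p = 0.0613) or WW24 replicate 3 (1.38, edgeR adjusted p = 0.0693), and the HAD hydrolase without WW24 replicate 1 (0.95). In 4 genes, these and seed imbibition 2 Gh_A01G1088 and trehalose phosphatase/synthase 5 (0.61, SE 0.19, edgeR adjusted p = 0.0616), every WW48 library was above every WW24 library, beside 12.1% of all genes. Seed imbibition 2 Gh_A01G1088 passed the adjusted p but not the fold (0.63, SE 0.16, edgeR adjusted p = 0.0342). Galactinol synthase 1 had a value of 0.44 (SE 0.44, edgeR adjusted p = 0.584) with overlapping groups, and 1.31 (edgeR adjusted p = 0.00555), called, without WW24 replicate 2. With 1 library left out its value ran from 0.091 to 1.31. Both groups of this comparison served as controls when the genes were chosen.

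The stress effect at 48 h was set against that at 24 h by the difference of WS48/WW48 and WS24/WW24 in the same model. No gene of the 7 was called for it by edgeR, nor was any of the 43938 genes (0%; lowest edgeR adjusted p = 0.0664), although 4 of the 7 had an unadjusted p under 0.05. HAD hydrolase Gh_D11G2201 had a difference of −1.59 (SE 0.31, edgeR adjusted p = 0.109) and seed imbibition 2 Gh_D12G1848 one of −1.77 (SE 0.50, edgeR adjusted p = 0.214). Galactinol synthase 2 had a difference of 1.56 (SE 0.66, edgeR adjusted p = 0.382) and trehalose phosphatase/synthase 5 one of −0.54 (SE 0.25, edgeR adjusted p = 0.423). DESeq2 called the HAD hydrolase (adjusted p = 0.000405) and the seed imbibition 2 gene (adjusted p = 0.0443), and limma-voom called none. Without WW24 replicate 2, edgeR also called both, at −1.78 (adjusted p = 0.0102) and −2.11 (adjusted p = 0.0203).

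**Figure D3:**
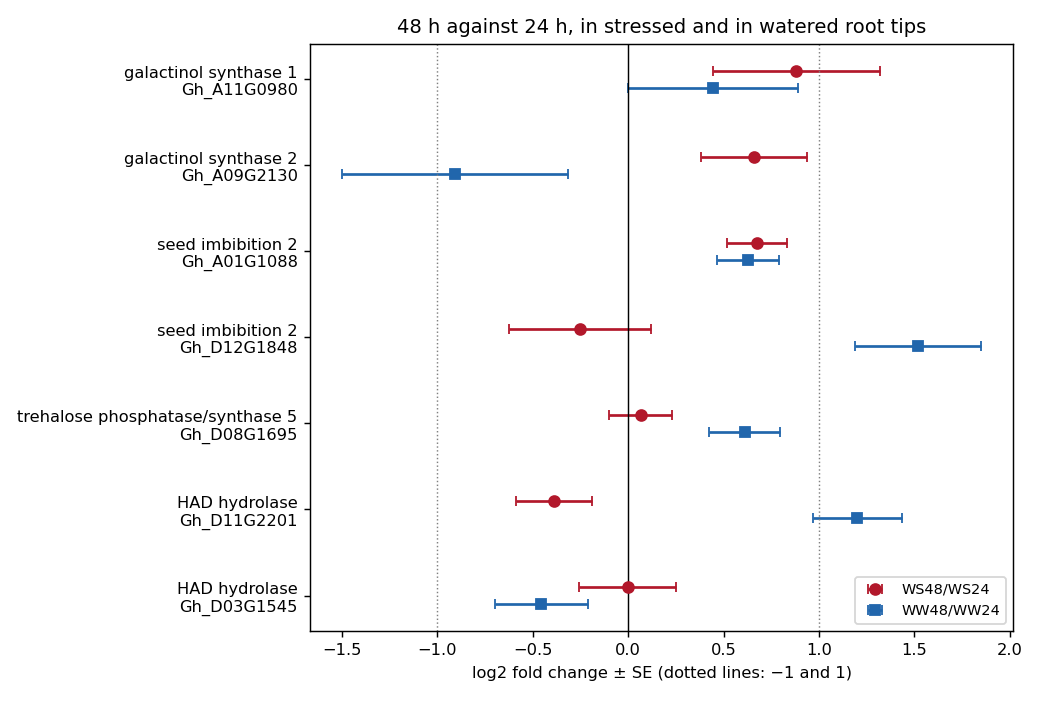
Log2 fold change ± SE between 48 h and 24 h for the 7 genes in stressed (WS48/WS24, circles) and in watered root tips (WW48/WW24, squares), n = 3 libraries a group, with dotted lines at 1 and −1. Only seed imbibition 2 Gh_D12G1848 (1.52) and HAD hydrolase Gh_D11G2201 (1.20) in watered roots lie beyond 1, and no value under stress does.

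The pathway around these genes was followed through 29 genes, the 7 and 22 relatives, named by the study's annotation of its DATs. These lists hold genes that the study had picked on these libraries, with WW24 and WW48 as controls, so their direction is no independent evidence at 48 h, nor at 24 h, where WW24 is again the control, and family members outside its DATs are not in them. In WS24/WW24, 12 of the 29 were called higher, 14 lower and 3 neither, and of the 22 relatives 8 were higher and 12 lower. Over all genes 8.68% were called in either direction, and nothing is read from that contrast. The median log2 fold change was −1.12 over the 29 genes and −1.45 over the 22 relatives.

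The 6 galactinol synthases among the study's DATs moved in 1 direction. Of these, 5 rose in WS24/WW24, none fell and only galactinol synthase 1 Gh_A11G0980 was not called, with a median log2 fold change of 2.11. Over all genes 3.75% were called higher and 4.93% lower. Nothing is read from the count, since the 6 were picked as DATs with WW24 as a control. Galactinol synthases outside the DATs were not followed. Galactinol synthase 2 Gh_A13G0935 stood at 15.6, 12.3 and 19.5 CPM in WS48 and 27.1, 26.4 and 27.8 CPM in WS24, against 1.75, 5.05 and 1.91 CPM in WW48 and 0.734, 4.59 and 1.47 CPM in WW24. Its WS24 libraries were all above its WS48 libraries, the opposite order to that of Gh_A09G2130, and replicate 2 was again the highest watered library at each time. Its log2 fold change was 3.64 (edgeR adjusted p = 0.00049) in WS24/WW24. The others had values of 2.81 (galactinol synthase 2 Gh_D09G2336, edgeR adjusted p = 0.00688), 1.41 (galactinol synthase 1 Gh_D07G1285, edgeR adjusted p = 0.00547) and 1.27 (galactinol synthase 1 Gh_D11G1131, edgeR adjusted p = 0.00284). The reads of all 6 genes summed to 405 to 444 CPM in WS48 and 247 to 309 CPM in WS24, against 106 to 173 CPM in WW48 and 64.9 to 163 CPM in WW24, with no overlap between stressed and watered libraries. That separation too follows in part from the choice of DATs.

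The raffinose synthase and seed imbibition genes split. A raffinose synthase family gene (Gh_A05G3108) rose with seed imbibition 2 Gh_A01G1088 in WS24/WW24 (1.39, edgeR adjusted p = 0.0194), seed imbibition 2 Gh_A12G1687 fell with Gh_D12G1848 (−2.96, edgeR adjusted p = 0.00825), and 2 of the 6 were not called. Those were seed imbibition 1 Gh_A12G1686 (−1.83, edgeR adjusted p = 0.0848) and seed imbibition 1 Gh_A13G1088 (−0.86, edgeR adjusted p = 0.104), whose WS24 libraries all lay below the WW24 libraries. The raffinose synthase family gene stood at 9.47, 9.88 and 16.7 CPM in WS48 and 15.2, 12.0 and 12.7 CPM in WS24, against 3.08, 4.13 and 3.55 CPM in WW48 and 2.08, 6.46 and 6.61 CPM in WW24. Over the 12 galactinol synthase, raffinose synthase and seed imbibition genes, 7 rose, 2 fell and 3 were not called, with a median of 1.33. Nothing is read from this count of DATs, beside 3.75% called higher and 4.93% lower over all genes. In WW48/WW24, 3 of these 12 rose, all of them seed imbibition genes (Gh_D12G1848, Gh_A12G1687 at 2.16 with edgeR adjusted p = 0.0167, and Gh_A13G1088 at 1.11 with edgeR adjusted p = 0.0496), and none fell, beside 3.53% and 1.26% of all genes. This count of 3 was 0 without WW48 replicate 2 or WW24 replicate 3, 1 without WW24 replicate 1 and 6 without WW24 replicate 2, and 0 at an adjusted p of 0.01 or with the compared groups fitted alone.

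Of the 8 genes of the trehalose term, 4 rose and 4 fell in WS24/WW24, so that the median was −0.11. Over all genes 3.75% were called higher and 4.93% lower. These 8 were picked as DATs with WW24 as a control, so nothing is read from the counts. With trehalose phosphatase/synthase 5 Gh_D08G1695 and HAD hydrolase Gh_D11G2201 rose a second trehalose phosphatase/synthase 5, Gh_A08G1399 (1.23, edgeR adjusted p = 0.00789), and HAD hydrolase Gh_A11G3117 (3.11, edgeR adjusted p = 6.54e-06). With HAD hydrolase Gh_D03G1545 fell HAD hydrolases Gh_A03G1983 (−1.76, edgeR adjusted p = 0.00143), Gh_D12G1978 (−1.60, edgeR adjusted p = 0.00305) and Gh_A12G1807 (−1.45, edgeR adjusted p = 0.00692). Both trehalose phosphatase/synthase genes thus rose, and the 6 HAD hydrolases divided into 2 that rose and 4 that fell. In WW48/WW24 only Gh_D11G2201 of the 8 was called, and in WS48/WS24 none (1 with an unadjusted p under 0.05; 0 by DESeq2 and by limma-voom).

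Among the study's DATs, genes that supply or use the substrates of galactinol synthase were mostly lower under stress. Members of these families outside the DATs were not followed, and 4.93% of all genes were called lower in WS24/WW24. UDP-glucose 4-epimerases interconvert UDP-glucose and UDP-galactose, and of 3 genes epimerase 2 Gh_A05G3413 rose in WS24/WW24 (2.62, edgeR adjusted p = 0.00701), while epimerase 1 genes Gh_A08G1623 (−1.52, edgeR adjusted p = 0.0071) and Gh_D08G1936 (−1.12, edgeR adjusted p = 0.0233) fell. Inositol monophosphatases free myo-inositol from its phosphate, and both Gh_A04G1076 (−1.46, edgeR adjusted p = 0.000426) and Gh_D04G1683 (−1.68, edgeR adjusted p = 0.00279) fell. Myo-inositol oxygenases, which oxidise myo-inositol to glucuronate, held the 3 largest falls of the 29 genes, with 4 of 4 called and a median of −4.03.

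The oxygenase genes were at low levels under stress. Myo-inositol oxygenase 4 Gh_D06G0690 stood at 3.16, 5.96 and 4.12 CPM in WS48 and 2.70, 4.30 and 2.84 CPM in WS24, against 120, 129 and 120 CPM in WW48 and 46.5, 107 and 66.6 CPM in WW24. Its log2 fold change in WS24/WW24 was −4.47 (edgeR adjusted p = 6.54e-06), beside −4.66 for myo-inositol oxygenase 5 Gh_D03G1637 (edgeR adjusted p = 7.7e-05) and −3.58 for myo-inositol oxygenase 4 Gh_A06G0608 (edgeR adjusted p = 0.000214). Myo-inositol oxygenase 4 Gh_Sca004857G03, with a log2 fold change of −2.66 (edgeR adjusted p = 0.0203), overlapped between WS24 and WW24. In WS48 it had no read, against 182 reads in WW48, which put it at least 68.0-fold lower with a floor of 3 reads over the group. In WW48/WW24, 8 of the 29 pathway genes rose and none fell, beside 3.53% of all genes called higher and 1.26% lower, among them both inositol monophosphatases (1.15 and 1.11), epimerase 2 Gh_A05G3413 (2.25) and myo-inositol oxygenase 5 (1.80). With 1 library left out, the calls higher over all genes in this comparison ran from 489 to 4359, beside 1553 with all libraries, and the count of the 29 was not followed there.

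**Figure D4:**
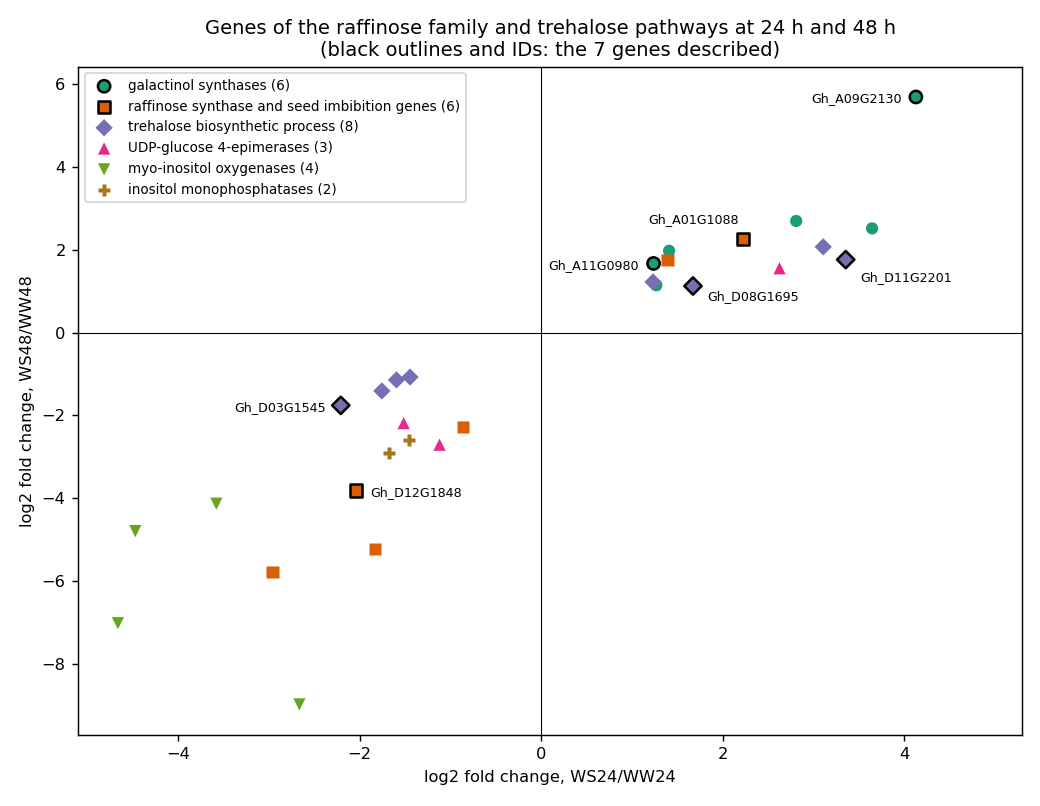
Log2 fold changes of the 29 pathway genes in WS24/WW24 (horizontal axis) and WS48/WW48 (vertical axis), by gene family, with black outlines and IDs for the 7 genes described. Galactinol synthases lie in the upper right, up to 4.13 and 5.69, and myo-inositol oxygenases in the lower left; the lowest point, Gh_Sca004857G03, had no read in WS48, so its vertical place depends on the prior count of the fit.

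For 6 of the 7 genes the study's DATs held a gene of the same annotation on the chromosome of the same number in the other subgenome. The balance of reads within such a pair was followed. Functions were given only for DATs, so a counterpart outside them, as there may be for Gh_A01G1088, could not be found. Both genes of each pair are thus DATs, which favours pairs that changed together. Reads shared between near-identical copies may have been dropped or misplaced in counting, so these shares describe the reads as assigned, without a test. Galactinol synthase 2 showed the widest shift: Gh_A09G2130 took 62.9% ± 4.1 (SD, n = 3) of the reads of Gh_A09G2130 and Gh_D09G2336 in WS48 and 60.7% ± 0.52 in WS24, against 18.6% ± 6.5 in WW48 and 38.2% ± 19.0 in WW24. The A copy thus held most of the reads under stress and the minority in the mean of both watered groups. In WW24 the 3 libraries gave 25%, 29.6% and 60%, and WW24 replicate 3 lay within the range of the stressed libraries. The watered shares rest on few reads, 10 and 18 for the A copy as given above.

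The other pairs kept their leading copy or were near balance. Gh_A11G0980 took 47.9% ± 1.8 of the galactinol synthase 1 pair with Gh_D11G1131 in WS48 and 41.7% ± 0.29 in WS24, against 37.9% ± 6.7 in WW48 and 38.5% ± 10.7 in WW24, with 50.8% in WW24 replicate 2. Gh_D12G1848 took 94.5% ± 1.7 in WS48 and 92.7% ± 3.2 in WS24 of the pair with Gh_A12G1687, against 81.6% ± 4.1 in WW48 and 85.9% ± 3.8 in WW24, and every stressed library was above every watered one. The stressed shares rest on few reads of Gh_A12G1687, 10 in WS48 and 16 in WS24. How often other pairs of the genome separate in this way was not counted. Gh_D08G1695 held between 69.4% and 80.4% of the trehalose phosphatase/synthase 5 pair in every library, and Gh_D11G2201 between 54.8% and 78.0% of its pair with Gh_A11G3117. For Gh_D03G1545 with Gh_A03G1983 the share was 42.4% ± 7.7 in WS48 and 46.5% ± 5.8 in WS24, against 49.4% ± 3.4 in WW48 and 55.6% ± 7.9 in WW24, with overlapping groups.

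**Figure D5:**
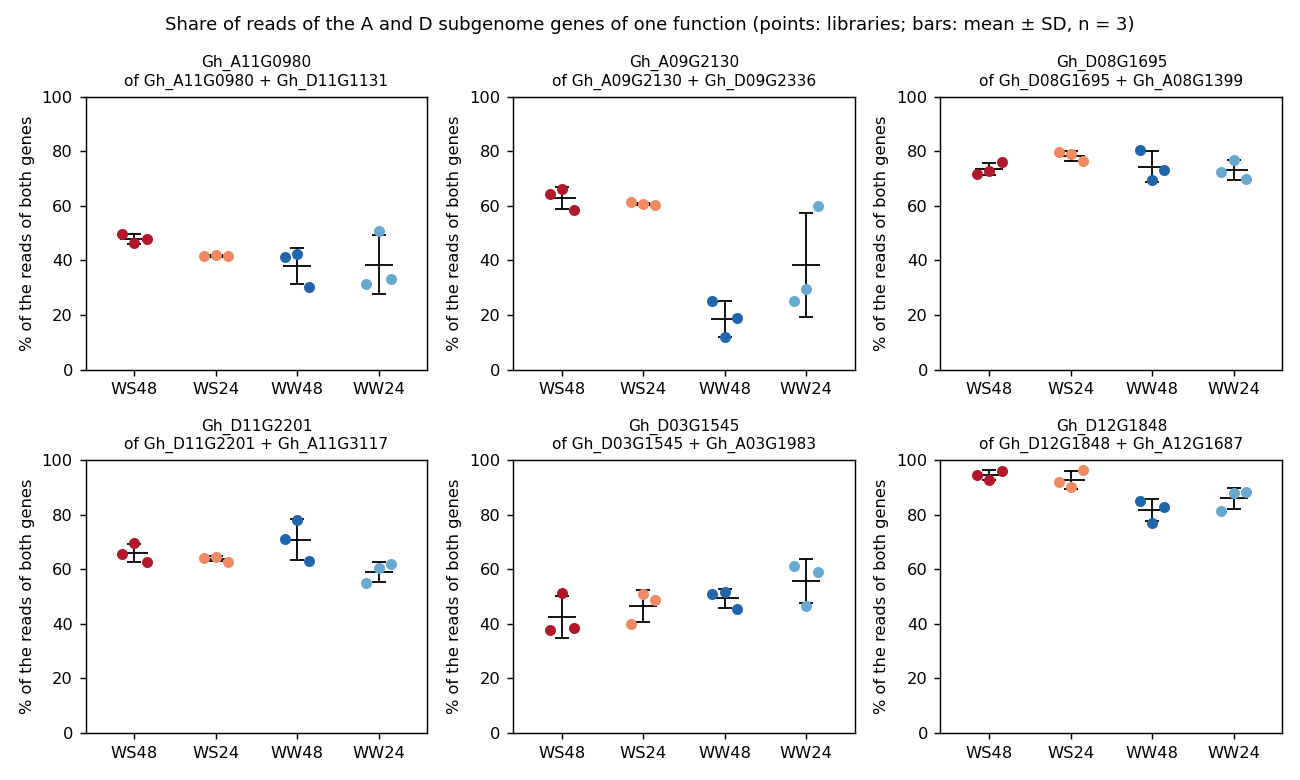
Share of reads (percent) taken by each of 6 genes within its pair of A and D subgenome genes of the same annotation, in WS48, WS24, WW48 and WW24. Points are libraries and bars the mean ± SD (n = 3). Gh_A09G2130 moves most, with means of 62.9% and 60.7% in stressed and 18.6% and 38.2% in watered groups.

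Genes most like each of the 7 were sought among the study's annotated DATs by Pearson's r of log2 CPM over the 12 libraries, which fall into 4 groups and share the stress contrast, so the values are description only. For galactinol synthase 2 these were a DUF593 protein (Gh_A08G2087, r = 0.991), YELLOW STRIPE like 3 (Gh_A09G1671, r = 0.981), named for carriers of metal chelates, and a heat shock protein 70 (Gh_A13G2046, r = 0.980), a chaperone, and no other gene tested ranked above them. Galactinol synthase 1 was nearest to a DUF581 protein (Gh_D03G0406, r = 0.978), ZRT/IRT-like protein 2 (Gh_A05G0795, r = 0.972), named for zinc and iron carriers, and BEL1-like homeodomain 1 (Gh_D09G0967, r = 0.968). These ranked 1, 3 and 4 among all genes tested. Among the DATs, seed imbibition 2 Gh_A01G1088 was nearest to copper transporter 5 (Gh_D13G2024, r = 0.978) and to another YELLOW STRIPE like 3 gene (Gh_D03G1106, r = 0.977), and a gene with no function given (Gh_D03G0982, r = 0.976). Over all genes tested these ranked 4, 5 and 6. The transcript closest to seed imbibition 2 Gh_D12G1848 was its A subgenome relative Gh_A12G1687 (r = 0.988), ahead of a thaumatin (Gh_A11G0393, r = 0.987) and a DUF506 protein (Gh_A12G1274, r = 0.986). Ribonuclease 1 (Gh_D12G1637) came first for both trehalose phosphatase/synthase 5 Gh_D08G1695 (r = 0.987) and HAD hydrolase Gh_D11G2201 (r = 0.994). Among the DATs, HAD hydrolase Gh_D03G1545 was nearest to a MATE efflux protein (Gh_A03G1748, r = 0.973), ferretin 1 (Gh_A09G2418, r = 0.972), as the annotation spells this iron store, and PYR1-like 6 (Gh_A06G1418, r = 0.971), an abscisic acid receptor. Their ranks over all genes tested were 2, 3 and 4.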

How the data were processed

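RNA from 12 cotton root tip samples was sequenced by the authors, who aligned the reads to the NAU-NBT v1.1 genome. The submitters' processing notes name HISAT2 1.0 and HTSeq 0.6.1. The authors deposited whole-number read counts for 70477 genes in 12 libraries, and 4 lines outside genes (16.9% to 19.1% of reads without a feature, 13.3% to 20.6% not aligned, 0.158% to 0.205% ambiguous, 0 of low quality), which were left out. No line was given for reads aligned to several places, so these percentages are shares of the reads listed. The authors also deposited TMM-normalized values, rounded (a score, not read counts), which were not used. The library kit was strand-specific, but no source used here says whether counting used the strand, so antisense reads cannot be separated. Apart from the strand, reads of near-identical A and D copies may have been dropped or misplaced in counting. Levels (CPM) are not per length and are compared within a gene.

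The analysis used edgeR 4.0.16 in R 4.3.3: filterByExpr (minimum count 10, total 15; 43938 genes kept), TMM factors of 0.857 to 1.06, and 1 quasi-likelihood model of the 12 libraries (prior count 0.125) with Benjamini-Hochberg adjustment over all genes. The SE is the log2 fold change divided by the root of F. P-values measure the spread between samples of independent experiments. Alternatives were DESeq2 1.42.0, limma-voom (limma 3.58.1), RLE factors, library size, other filters, the compared groups alone, a replicate block, an adjusted p of 0.01 and leaving out libraries. The procedure was tested on simulated data. No 2 replicates were alike within sampling noise (chi-square per degree of freedom 2.03 or more, and up to 32.3 in pairs with WW24 replicate 2).

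The genes, lists and markers were chosen with earlier results of these data known. Lists and markers come from words in the functions, or the GO term, that the study gives for its DATs. Named are every one of the 7 genes and 22 relatives, and for each of the 7 up to 3 genes of highest r (log2 CPM, prior count 2). IDs matched 0 entries of the reference gene table (assembly Gossypium_hirsutum_v2.1), so no sequence or coordinate is given.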

Additional observations from a re-analysis of the deposited data

Results flagged for a closer look

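The libraries of HAD hydrolase Gh_D11G2201 lay in opposite orders over time in the treatments. All its WS48 libraries were below all WS24 libraries (34.9 ± 1.4 and 45.8 ± 5.8 CPM, SD, n = 3 each; not called, edgeR adjusted p = 0.402), while all its WW48 libraries were above all WW24 libraries (10.3 ± 1.9 and 4.49 ± 1.6 CPM). The difference between the changes was −1.59 on the log2 scale (edgeR adjusted p = 0.109), past the threshold with DESeq2 (adjusted p = 0.000405) and without WW24 replicate 2.

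Myo-inositol oxygenase 4 Gh_Sca004857G03 had the same pattern, with 0 reads in WS48 and 13 in WS24, and 182 in WW48 and 74 in WW24. Its difference of −6.31 depends on the prior count (edgeR adjusted p = 0.196), and with the floor of 3 reads over the group WS48 was at least 4.34-fold lower than WS24. Groups of 3 libraries were not tested for single samples far from the others.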

How the results depend on the processing

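Direction held for every call of the 7 genes in all alternatives run, and none of the changes past the threshold turned round. Over their log2 fold changes, 886 alternative values kept their side of the threshold, 14 passed it anew and 16 no longer passed. The count of the 7 genes called higher in WW48/WW24 was 2, but 0 when the compared groups were fitted alone and 0 at an adjusted p of 0.01, and 0 to 3 when 1 library was left out. For the difference between the stress effects the count was 0 by edgeR, 2 with DESeq2 and 2 without the second libraries of WW24 and WW48 (chosen after seeing the data), and 0 to 2 with 1 library left out. In WS24/WW24 it was 4 to 5 higher and 2 lower throughout, and the DAT definition held for 5 to 7.

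Galactinol synthase 1 was called in WS24/WW24 with library size as scaling (1.43, edgeR adjusted p = 0.0338), DESeq2 (1.21, adjusted p = 0.0452) and limma-voom (1.54, adjusted p = 0.0364); its edgeR value in WS48/WW24 missed with the compared groups alone (adjusted p = 0.0517). The cause was not tested. Scaling by library size put the median over all genes in WS24/WW24 at 0.147 on the log2 scale, and its calls at 2274 higher and 1809 lower, against 1647 and 2165 with TMM. The split also moved in WS48/WW24 (2265 and 1311, against 1569 and 1713), WW48/WW24 (2266 and 343, against 1553 and 553) and WS48/WS24 (96 and 121, against 56 and 112). Over all alternatives with no library left out, genes called in WS24/WW24 numbered 929 to 2274 higher and 1061 to 2740 lower, in WW48/WW24 303 to 2266 and 92 to 718, and in WS48/WS24 10 to 1061 and 23 to 468. Without WW24 replicate 2 alone, 4359 genes were called higher in WW48/WW24 and 832 in WS48/WS24.

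Deviations of same-numbered libraries correlated at −0.179 to 0.38, and those of differently numbered libraries at −0.45 to 0.394. No comparison had every same-numbered pair above 0.1. In WS48/WW24 these pairs ran from 0.0781 to 0.142, and the others from −0.136 to 0.106. With 3 same-numbered pairs a comparison, whether the replicate numbers mark shared experiments cannot be decided. With the replicate numbers as a block, the genes called higher in WS24/WW24 were 5, galactinol synthase 1 included (1.41, edgeR adjusted p = 0.0471), and all genes called higher in WS48/WS24 145 instead of 56. Depth limits galactinol synthase 2 in watered roots, with 1 to 9 reads a library.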
